A study of Mus musculus with 12 samples.

Results

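The genes described here are 39 core genes of DNA replication and mitosis, taken by name from a list that runs from the replicative helicase (Mcm2 to Mcm7) to the mitotic kinases (Cdk1, Plk1, Aurka, Aurkb) and the cytokinesis machinery (Anln, Ect2, Racgap1). They are 39 of the 21887 protein-coding genes of the RefSeq gene table, and each was matched there. The study mapped the genomic sites of the homeobox proteins Meis1 and Hoxb13 by chromatin immunoprecipitation and sequencing, in ventricles of CD-1 mice at postnatal day 15. Its 12 libraries form 4 groups of 3: a Meis1 precipitate, an input for it, a Hoxb13 precipitate and an input for that. The labels name no genetic change, drug or injury in any group, and they name whole ventricles with no sorting of cells, so a peak cannot be placed in one cell type. The protocol describes ventricles of 3 hearts as the source, while the titles number the Meis1 and Hoxb13 libraries separately. The values are 1 annotated peak list per factor, each covering 3 libraries with no value per library, so no spread between hearts can be given and nothing below was tested. The files hold no expression values, so the tissue label was not checked against marker genes.

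These genes copy the genome in S phase and divide it in M phase. Cells that divide switch them on in waves, first the origin licensing and nucleotide supply genes and then the genes of mitosis, through E2F proteins, the MuvB complex, Mybl2 and Foxm1. Cardiomyocytes of the mouse leave the cell cycle soon after birth, and expression of this programme falls in the heart as they do. Meis1 and Hoxb13 have both been studied as regulators of that exit.

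Peaks of either factor were found at 22 of the 39 genes, and 17 had none. Meis1 had at least 1 peak at 14 genes (35.9%), where 38.2% of all protein-coding genes had one. Hoxb13 had at least 1 peak at 15 (38.5%), against 44.4% of all. A gene counts as bound where the authors assigned a peak to it, which they did by its nearest start site. Both factors were present at 7 genes, namely Cdc6, Cdk1, Ccnb2, Cdc25b, Cdc25c, Ect2 and Top2a (17.9%, against 23.9% of all genes). Meis1 alone was at 7 (Mcm2, Mcm5, Cenpe, Cenpf, Kif23, Mki67 and Mybl2) and Hoxb13 alone at 8 (Mcm6, Rrm1, Rrm2, Cdc25a, Cdc20, Kif11, Kif20a and Prc1). Of the 21887 protein-coding genes, 8362 had a Meis1 peak, 9712 a Hoxb13 peak and 5223 both, and the rest of each had that factor alone. The share with no peak was 43.6%, against 41.3% of all genes. The shares with a Meis1 peak, a Hoxb13 peak or both were each below those of all genes, and the gaps were not tested. Their direction turned under some ways of counting peaks and not under others. With peaks within 10 kb of the start the shares were 23.1% for Meis1 (19.5% of all genes), 38.5% for Hoxb13 (35.8%) and 12.8% for both (10.3%). With peaks over the gene body and 5 kb on each side they were 30.8% (33.3%), 51.3% (48.4%) and 25.6% (21.9%), so Meis1 stayed below.

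The factors differed in where they sat. A promoter peak lies within 1 kb of the assigned start site, and every other peak, in exons and introns too, is called distal here. Hoxb13 had a promoter peak at 12 genes: Mcm6, Rrm1, Rrm2, Cdc25a, Cdc25b, Cdc25c, Cdc20, Kif11, Kif20a, Ect2, Prc1 and Top2a. That is 30.8% of the 39, beside 30.7% of all protein-coding genes. Meis1 had a promoter peak at 3, Cdc6, Mcm2 and Cdc25b (7.69%, beside 8.16% of all). Distal Meis1 peaks were assigned to 12 genes (30.8%, against 33.9% of all) and distal Hoxb13 peaks to 5, Cdc6, Cdk1, Ccnb2, Ect2 and Kif20a (12.8%, against 25.2%). The distal Hoxb13 count was the one that lay farthest below the share of all genes among single-factor counts. Of the 20 Hoxb13 peaks at these genes 12 (60.0%) were in promoters, beside 40.3% of the whole list. Of the 23 Meis1 peaks 3 (13.0%) were, beside 6.73% of the list.

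**Figure D1:**
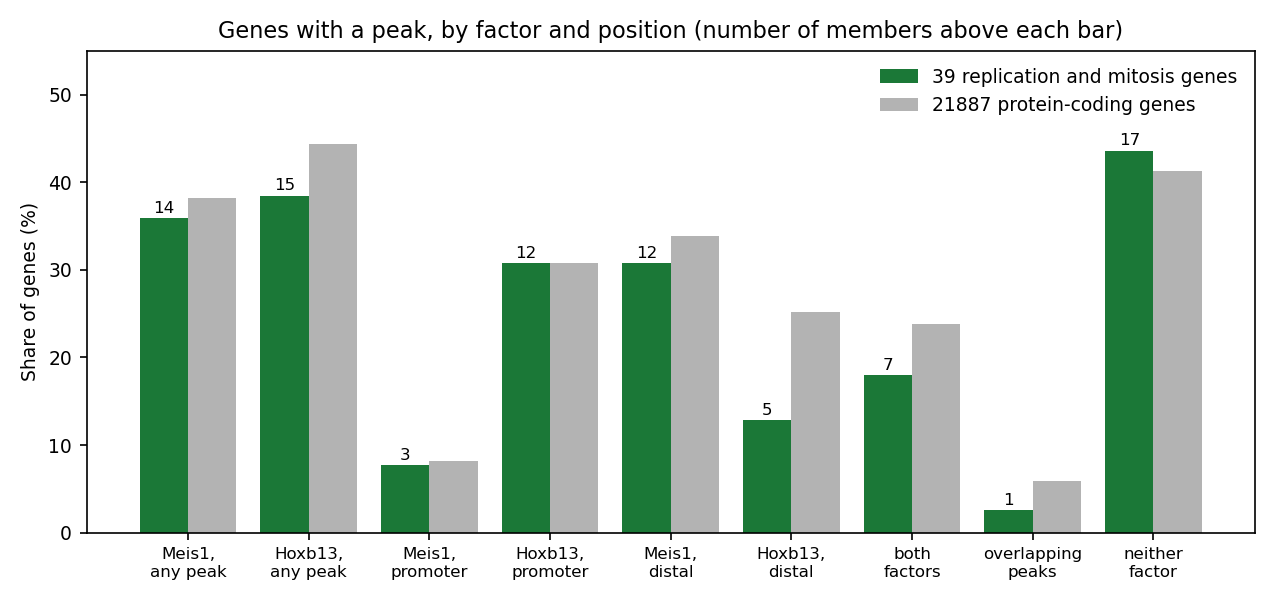
Share of genes (%) with a peak, for the 39 replication and mitosis genes (green, with the number of genes above each bar) and for 21887 protein-coding genes (grey), by factor and position. The promoter shares of Hoxb13 are 30.8% and 30.7%, and the distal shares 12.8% and 25.2%.

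The promoters shown next are those of Cdc25b, with a promoter peak of each factor, and of Top2a, Ect2, Prc1 and Rrm2, which had the strongest Hoxb13 promoter peaks among the members for which a sequence may be given. Each is 250 bases that end just before a RefSeq start site (GRCm38.p6), written 5′ to 3′ on the strand of the gene. Capitals mark words searched for on both strands: CCAAT (bound by NF-Y), TTTGAA and TTCGAA (the cell cycle homology region, bound by the MuvB complex), 4 E2F words and words of Meis and Hoxb13 that are spelled out further on.
Cdc25b, chr2:131186698-131186947, plus strand: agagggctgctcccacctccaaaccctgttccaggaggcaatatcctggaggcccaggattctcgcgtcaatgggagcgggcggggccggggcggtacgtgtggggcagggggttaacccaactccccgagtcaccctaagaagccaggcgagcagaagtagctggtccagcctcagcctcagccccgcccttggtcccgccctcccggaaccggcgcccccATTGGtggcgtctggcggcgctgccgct
Top2a, chr11:99024190-99024439, minus strand: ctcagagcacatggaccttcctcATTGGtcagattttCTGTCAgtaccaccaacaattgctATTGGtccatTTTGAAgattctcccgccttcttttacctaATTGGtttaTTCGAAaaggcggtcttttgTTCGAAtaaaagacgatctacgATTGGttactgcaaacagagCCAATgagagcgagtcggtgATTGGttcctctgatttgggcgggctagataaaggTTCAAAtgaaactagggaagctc
Ect2, chr3:27153879-27154128, minus strand: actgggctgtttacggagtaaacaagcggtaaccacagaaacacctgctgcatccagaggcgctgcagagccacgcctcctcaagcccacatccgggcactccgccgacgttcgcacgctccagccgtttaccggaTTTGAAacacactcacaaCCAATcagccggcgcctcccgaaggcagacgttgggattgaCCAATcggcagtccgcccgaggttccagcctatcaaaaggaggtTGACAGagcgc
Prc1, chr7:80294201-80294450, plus strand: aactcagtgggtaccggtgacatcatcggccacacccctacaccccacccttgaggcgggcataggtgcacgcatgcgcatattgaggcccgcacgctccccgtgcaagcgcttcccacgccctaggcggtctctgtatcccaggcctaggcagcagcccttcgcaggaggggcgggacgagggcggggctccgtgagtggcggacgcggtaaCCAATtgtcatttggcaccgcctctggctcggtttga
Rrm2, chr12:24708004-24708253, plus strand: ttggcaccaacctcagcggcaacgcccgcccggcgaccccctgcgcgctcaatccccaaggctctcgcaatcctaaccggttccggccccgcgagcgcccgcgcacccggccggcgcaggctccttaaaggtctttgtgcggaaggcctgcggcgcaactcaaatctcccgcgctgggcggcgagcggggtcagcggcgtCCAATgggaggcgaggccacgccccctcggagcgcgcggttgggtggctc

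Top2a, which encodes topoisomerase II alpha, the enzyme that untangles replicated chromosomes, had the densest promoter of these. Its 250 bases hold 6 CCAAT boxes, the nearest at -58, and 4 cell cycle homology words, the nearest at -23. Positions give the first letter of a word, and a negative number counts bases before the start site. The Hoxb13 peak at Top2a covered the whole 300-base RefSeq window and the start site itself. Ect2 has CCAAT boxes at -96 and -55 from the start of the transcript shown. Cdc25b, Prc1 and Rrm2 each have 1 CCAAT box in the bases shown, at -28, -37 and -50. In Prc1 a cell cycle homology word begins at -5 and so runs past the printed end. The Rrm2 window held no base of a peak, because its Hoxb13 peak begins 108 bp after the start.

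Among the genes that license and copy DNA, Meis1 was at Cdc6, Mcm2 and Mcm5 and Hoxb13 at Cdc6 and Mcm6. Cdc6, which loads the helicase at origins, was the only gene of this group with peaks of both factors. Its Meis1 promoter peak (mm10, chromosome 11, 98907575 to 98907858) ended 0.031 kb before the assigned start and had a strength of 25.0. Strength is the authors' deposited signal value per peak, and the Cdc6 value stood at percentile 76.0 of the Meis1 list. A stronger Meis1 peak (34.0, percentile 85.6) lay inside Cdc6, in an exon 9.49 kb from the assigned start. Hoxb13 peaks flanked these, at 1.72 kb upstream (98905775 to 98906170, strength 22.8, percentile 58.5) and in intron 9 at 10.5 kb (20.0, percentile 36.2). The gaps between neighbouring peaks of the factors at Cdc6 were 1404 bp at the start and 742 bp inside the gene, so the factors sat close by and did not overlap.

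Mcm2 to Mcm7 encode the 6 subunits of the replicative helicase, and they did not share a pattern. Mcm2 had a Meis1 peak over its start site (chromosome 6, 88898674 to 88898957, strength 17.6), a weak one at percentile 38.5. Mcm6 had a Hoxb13 peak over its start (chromosome 1, 128359453 to 128359848, strength 30.7, percentile 83.2) and no Meis1 peak. Mcm5 had a pair of Meis1 peaks beyond its 3′ end, 25.1 kb and 28.2 kb from the start, with strengths of 16.6 and 62.9 (percentiles 22.9 and 94.2). Mcm3, Mcm4 and Mcm7 had none assigned, and neither had Pcna, the sliding clamp. Rrm1 and Rrm2 encode the subunits of ribonucleotide reductase, which makes deoxynucleotides. Each had a Hoxb13 peak just inside the gene, 151 bp and 108 bp from the start, and neither had Meis1. The Rrm2 peak (chromosome 12, 24708362 to 24708757, strength 33.1, percentile 86.7) was among the stronger in the list. The Rrm1 peak (chromosome 7, 102441846 to 102442241, strength 18.2, percentile 8.93) was among the weakest.

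Of the 8 genes that drive entry into mitosis, Cdk1, Ccnb2, Cdc25b and Cdc25c had peaks of both factors (23.9% of all genes had both), a small count that was not tested. The 3 Cdc25 phosphatases, which activate cyclin-dependent kinases, are too few to compare with all genes, of which 30.7% had a Hoxb13 promoter peak. All 3 had such a peak. At Cdc25c it covered the start site with a strength of 67.3, which ranked 373 of 22284 Hoxb13 peaks and was the strongest Hoxb13 peak of the 39 genes. Cdc25c also had a Meis1 peak in an exon 13.2 kb from the start (17.6, percentile 38.3). At Cdc25a the Hoxb13 peak began 36 bp after the start (chromosome 9, 109875615 to 109876010, strength 27.1, percentile 75.2), and no Meis1 peak was assigned.

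Cdc25b was the one gene with promoter peaks of both factors (2.56% of the 39, beside 4.7% of all genes). Its Meis1 peak lay on chromosome 2 from 131186281 to 131186564 (strength 24.9, percentile 75.8), 0.384 kb upstream of the start, and its Hoxb13 peak from 131186663 to 131187058 (23.4, percentile 61.7), over the start. The peaks were 98 bp apart and their summits 438 bp apart, so they were side by side and not shared. The Meis1 summit was 0.013 kb from the outermost start of the gene in RefSeq, which lies upstream of the start in the sequence shown.

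Cdk1, the kinase that triggers mitosis, had 1 peak of each factor and none near its start. The Meis1 peak was 51.1 kb upstream, in an intron of another transcript (strength 18.0, percentile 43.4) and the Hoxb13 peak in exon 4, 7.72 kb from the start (19.3, percentile 28.7). Of its cyclin partners, Ccnb1 had no peak and Ccnb2 had 3. In Ccnb2 the Meis1 peak was in intron 3, 4.27 kb from the start (28.3, percentile 80.7). The Hoxb13 peaks of Ccnb2 lay 1.41 kb (70422963 to 70423358 on chromosome 9) and 2.54 kb upstream of its start (22.8 and 18.2), which the authors' classes place downstream of a neighbouring gene. Plk1 and Aurka, kinases of spindle assembly, had no peak assigned.

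Of the 4 spindle checkpoint and anaphase genes 3 had no peak, where 41.3% of all genes had none, and 4 genes are too few to compare. Cdc20, which activates the anaphase-promoting complex, had a Hoxb13 peak 0.031 kb upstream of its start (chromosome 4, 118437374 to 118437769, strength 25.5, percentile 70.6). The checkpoint kinases Bub1, Bub1b and Ttk had no peak of either factor. Meis1 was at 0 of the 4 genes of this group, where 38.2% of all genes had a Meis1 peak.

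Among genes of the spindle and kinetochore, the strongest Meis1 peaks of the whole set were assigned to Cenpf, a large kinetochore protein. Cenpf had 4 Meis1 peaks and no Hoxb13 peak. Those at 10.4 kb upstream (chromosome 1, 189698479 to 189698656) and in intron 6 (189679587 to 189679785, 8.30 kb from the start) had strengths of 148 and 129 and ranked 415 and 552 of 30534. The others were weaker, at 7.21 kb upstream (23.4) and 59.8 kb downstream of the start (17.1), the latter outside the gene. Cenpe, a kinetochore motor, had 2 weak Meis1 peaks at 137 kb and 176 kb upstream (18.2 and 17.4). Kif11, the motor that separates spindle poles, had a weak Hoxb13 peak 0.45 kb upstream (chromosome 19, 37375558 to 37375953, strength 19.5, percentile 31.0). Tpx2 and Nusap1, which build and bundle spindle microtubules, had none.

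Hoxb13 promoter peaks were at 3 of the 8 genes of the chromosomal passenger complex and cytokinesis, near the 30.7% of all genes. Prc1, which bundles the central spindle, had one over its start (chromosome 7, 80294407 to 80294802, strength 33.2, percentile 86.8). Kif20a, the kinesin that brings the passenger complex to the midzone, had one over its start (29.3, percentile 80.6) and a further Hoxb13 peak in its 3′ UTR (21.2, percentile 49.0). Kif23, a centralspindlin motor, had a Meis1 peak 1.34 kb upstream (19.1, percentile 53.3), just outside the promoter class. Aurkb, Birc5, Racgap1 and Anln had no peak assigned.

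Ect2, the exchange factor that activates RhoA at the cleavage furrow, had 3 peaks of each factor. Its Hoxb13 promoter peak (chromosome 3, 27153736 to 27154131) had a strength of 47.5 and ranked 924 of the list. The other Hoxb13 peaks were below the median of their list (18.4 at 83.9 kb and 21.1 at 174 kb). The Meis1 peaks of Ect2 had strengths of 16.2 (5.48 kb, in intron 3, percentile 14.9), 19.6 (64.2 kb, percentile 57.1) and 16.6 (174 kb, percentile 23.0). The sites at 174 kb overlapped and were the only place where a Meis1 and a Hoxb13 peak of these genes did so (1 of 39 genes, 2.56%, beside 5.89% of all protein-coding genes). The Meis1 peak there ran from 26979579 to 26979862 and the Hoxb13 peak from 26979589 to 26979984, sharing 274 bp, with summits 66 bp apart. That site lies in intron 10 of another gene, Spata16, so its assignment to Ect2 rests on the distance from the peak to the nearest start site alone.

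Of the chromatin proteins and regulators, Top2a had the strongest Hoxb13 peak after that of Cdc25c, over its start on chromosome 11 from 99024094 to 99024489 (strength 61.4, rank 460). Its Meis1 peak, in intron 8, was weak (16.4, percentile 18.8). Mki67, the proliferation marker that coats mitotic chromosomes, had 2 intergenic Meis1 peaks, 86.2 kb (chromosome 7, 135802529 to 135802708) and 86.4 kb upstream, with strengths of 100.3 and 24.1 (percentiles 97.2 and 74.4). Mki67 had the largest locus of the set, 617 kb (the gene with its flanking gaps, cut at their midpoints), and the Hoxb13 summit nearest its start was 349 kb away. Mybl2, which works with MuvB, had a Meis1 peak 6.22 kb upstream (22.1, percentile 69.2). Foxm1, which drives the mitotic genes, had none assigned.

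**Figure D2:**
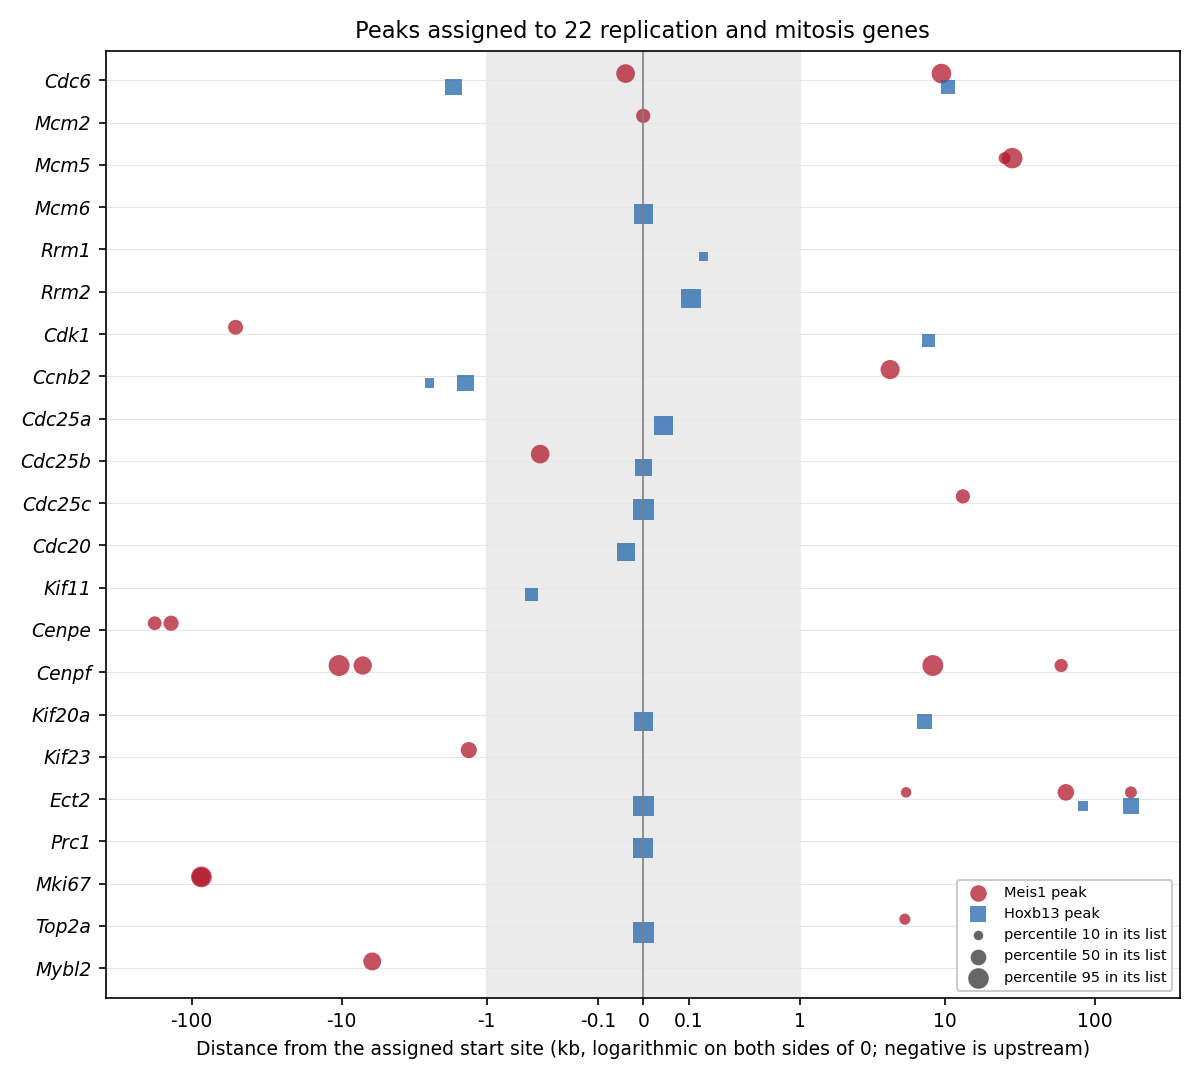
Each symbol is a peak assigned to one of the 22 bound genes, placed by its distance from the assigned start site (kb, logarithmic on both sides of 0, negative upstream). Circles are Meis1 and squares Hoxb13, the size gives the percentile of strength in the factor's own list, and the grey band marks 1 kb on each side of the start. There are 12 Hoxb13 and 3 Meis1 peaks in the band, and 20 of the 23 Meis1 peaks lie outside it.

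Assignment to the nearest start hid a few peaks at starts that these genes share with a neighbour. A Meis1 peak of strength 50.7 (percentile 92.0) was assigned to Ap4m1, and its summit lay 141 bp inside Mcm7. It was stronger than any of the 3 Meis1 peaks in the promoter class. A Hoxb13 peak assigned to Cstf1 (24.2, percentile 65.4) had its summit 21 bp from the start of Aurka. A Hoxb13 peak assigned to Rhno1 (26.2, percentile 72.8) ended 8 bp short of the lower-coordinate end of Foxm1, whose strand is not given in the tables used. Counted by position, whichever gene was named, Meis1 was within 1 kb of the start of 4 genes and Hoxb13 of 14 with Foxm1 or 13 without it. Foxm1 was left out of a count of summits within 1 kb over the 35 members with a known strand. That count gave 4 for Meis1 (11.4%) and 13 for Hoxb13 (37.1%). The shares were 7.86% and 32.3% of the 20089 protein-coding genes with a known strand, and the differences were not tested. Of the 17 genes with no assigned peak, Mcm7, Aurka, Foxm1 and Anln had a peak of a neighbour at the start or over the gene body with 5 kb on each side. The other 13 had none there: Mcm3, Mcm4, Pcna, Ccnb1, Plk1, Bub1, Bub1b, Ttk, Tpx2, Nusap1, Aurkb, Birc5 and Racgap1. No matching share over all protein-coding genes is given for these counts, so they are not read as particular to the set.

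Distances from the start to the nearest summit, read without regard to assignment, were available for the 35 genes with a known strand. For a gene without a RefSeq promoter window the strand came from the peak lists, so it was known only where a peak was assigned. Cdc25c and Kif20a were kept in this way, while Mcm4, Tpx2, Aurkb and Foxm1 dropped out. The wider set of genes was filtered alike, so the values on both sides lean towards genes with a peak. For Hoxb13 they ran from 0.021 kb (Aurka) to 349 kb (Mki67), with a median of 10.3 kb, beside 16.5 kb over 20089 protein-coding genes. For Meis1 they ran from 0.008 kb (Cdc6) to 255 kb (Rrm2), with a median of 39.5 kb beside 34.3 kb. A summit within 10 kb of the start was present at 17 of the 35 for Hoxb13 (48.6%, beside 44.3%) and at 9 for Meis1 (25.7%, beside 22.6%).

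Strength separated the promoter peaks of Hoxb13 from its other peaks at these genes. The 12 promoter peaks had percentiles from 8.93 (Rrm1) to 98.3 (Cdc25c) with a median of 81.9, where promoter peaks of the whole Hoxb13 list had a median of 68.6. The 8 distal ones ran from 10.3 to 58.5 with a median of 41.7, beside 38.7 for the list. All but Rrm1 and Kif11 among the 12 promoter peaks were above every distal one. The 3 Meis1 promoter peaks were at percentiles 38.5, 75.8 and 76.0 (median 75.8, beside 73.2 for promoter peaks of the list). The 20 distal Meis1 peaks spanned percentiles 14.9 to 98.6 (median 55.2, beside 48.3), so the medians had the same order as for Hoxb13, while the ranges overlapped throughout. Percentiles are ranks within 1 list, and the lists differ in length.

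**Figure D3:**
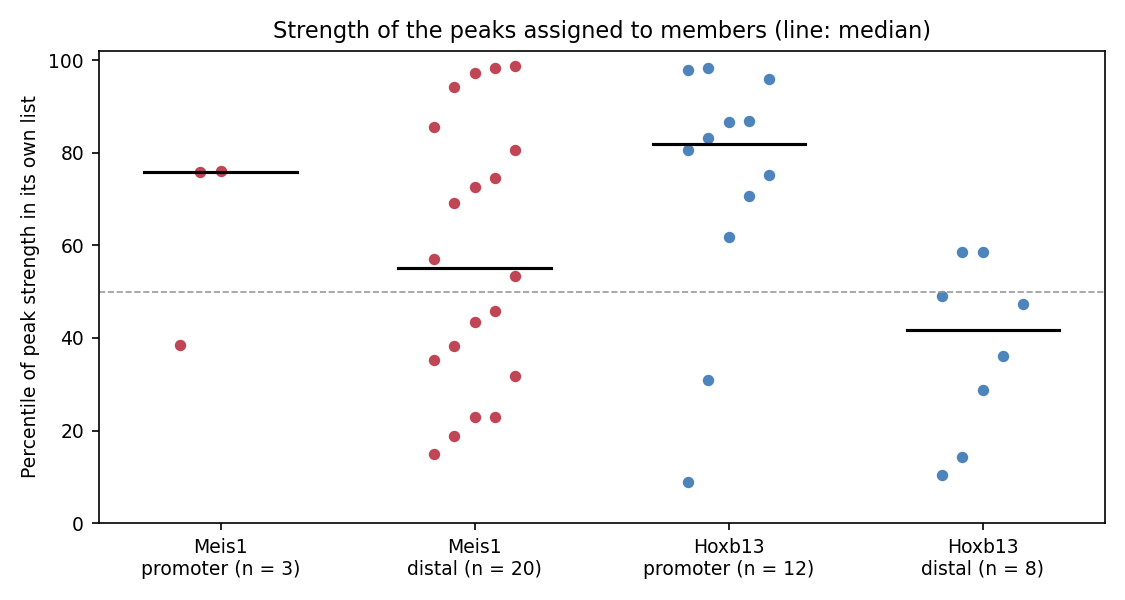
Percentile of peak strength within the factor's own list for each peak assigned to the genes, by factor and position; the line is the median and the dashed line marks percentile 50. Of the 12 Hoxb13 promoter peaks 10 lie above percentile 60.1, the median of all 20 Hoxb13 peaks, while the 8 distal Hoxb13 peaks lie at 58.5 or below.

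Distal Meis1 peaks lay nearer to these genes than Meis1 peaks do in general, with a median distance of 19.1 kb beside 68.9 kb for distal peaks of the list. For the 8 distal Hoxb13 peaks the median was 7.51 kb beside 22.5 kb. The genes had a median locus of 34.4 kb beside 46.4 kb for all protein-coding genes, and the part of locus size in these distances was not tested. Of the 39, 24 had a locus below that median of all genes. Among these 24, 8 had a Meis1 peak (33.3%, beside 22.3% of all genes with such small loci) and 10 a Hoxb13 peak (41.7%, beside 37.0%). Among the 15 with larger loci, 6 had a Meis1 peak (40.0%, beside 54.1%) and 5 a Hoxb13 peak (33.3%, beside 51.7%). The distal Hoxb13 counts were 3 of 24 (12.5%, beside 15.6%) and 2 of 15 (13.3%, beside 34.9%), so the wider gap was in the larger loci. These counts are small, and the gaps from all genes were not tested. Counted per gene, there were 0.59 Meis1 peaks (1.13 over all genes) and 0.513 Hoxb13 peaks (0.902). Per 100 kb of locus there were 0.935 Meis1 peaks (0.908 over all genes) and 0.813 Hoxb13 peaks (0.724). Within the locus classes the Hoxb13 order turned, with 2.45 peaks per 100 kb in the smaller loci (2.68 over all such genes) and 0.363 in the larger (0.529). For Meis1 the values were 1.69 (1.33) and 0.725 (0.866).

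What the promoters have in common was read from RefSeq windows of 250 bases before and 50 after the start, found for 33 of the 39 genes. A CCAAT box was present at 28 (84.8%), where 42.3% of the 17492 protein-coding genes with a window had one. A cell cycle homology word was present at 20 (60.6%, beside 20.2%), among them all 4 spindle checkpoint genes. An E2F word (TTTGGCGC, TTTCCCGC, TTTGCCGC or TTTCGCGC) was present at 7 (21.2%, beside 3.29%), namely Cdc6, Mcm3, Mcm5, Mcm6, Mcm7, Cdc25a and Cdk1, so 5 of the 7 licensing and fork genes with a window had one. A gene with several windows counts once, and words of 1 kind may overlap.

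The words of the factors themselves were found at few of these promoters, and counts this small were not tested against those of all genes. The Meis word TGACAG was found at 4 (12.1%, beside 21.2% of all), Cdc25a, Ect2, Top2a and Anln. None of these had a Meis1 promoter peak, and the windows of Cdc6, Mcm2 and Cdc25b lack these letters. Of those windows only that of Mcm2 was overlapped by its Meis1 peak (227 bases). The Hoxb13 words CAATAAA and CTCGTAAA, of which the former can overlap a CCAAT box, were found at 0 of 33 (beside 4.7% of all). Among the genes with a Hoxb13 promoter peak and a window, 10 of 10 had a CCAAT box and 6 of 10 a cell cycle homology word. Among the 23 without such a peak the counts were 18 and 14. Over all protein-coding genes with a window, CCAAT was at 43.9% of those with such a peak and 41.6% of those without. The cell cycle homology words were at 15.2% and 22.5%. This split goes by the assigned gene and not by what lies over the window. The window of Aurka, counted as without, held 154 bases of a Hoxb13 peak, and those of Kif11, Rrm1 and Rrm2, counted as with, held 0. These are matches of letters in a window and do not show that a protein was bound.

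**Figure D4:**
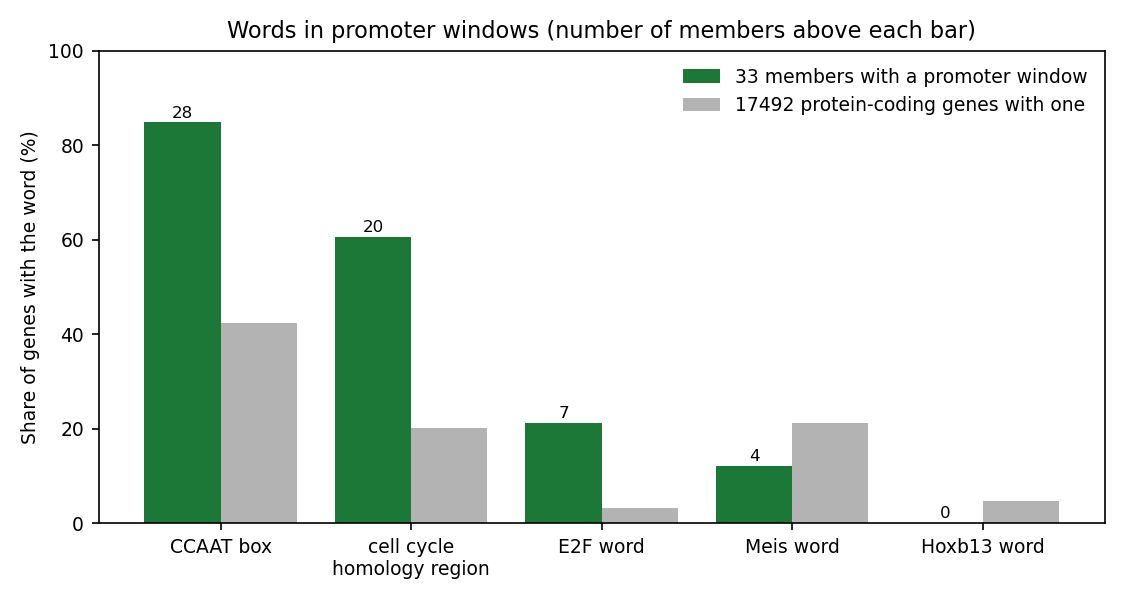
Share (%) of genes whose promoter window holds each word, for 33 replication and mitosis genes (green, number of genes above each bar) and 17492 protein-coding genes (grey). CCAAT is at 84.8% beside 42.3%, and the Meis and Hoxb13 words are at 12.1% and 0 beside 21.2% and 4.7%.

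The other genes of the same pathways were 38 further replication genes, 53 further mitosis genes and 5 MuvB core genes, each matched. Of these 96, 33 had a Meis1 peak (34.4%, beside 38.2% of all genes) and 49 a Hoxb13 peak (51.0%, beside 44.4%). Hoxb13 promoter peaks were at 17 replication genes (44.7%), 18 mitosis genes (34.0%) and 2 MuvB genes, together 38.5% beside 30.7% of all genes. Meis1 promoter peaks were at 7 (7.29%, beside 8.16%). Promoter peaks of both factors were at 4 of the 96 (4.17%, beside 4.7% of all genes), each a mitosis gene: Cdca3, a mitotic entry factor, Ska2, a kinetochore subunit, Ckap5, a microtubule polymerase, and Cep55, an abscission protein. The same 4 had overlapping peaks of the factors, as had Gins2, a helicase subunit (5 of 96, 5.21%, beside 5.89% of all genes).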

How the data were processed

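Crosslinked ventricle chromatin was precipitated with antibodies to Meis1 or Hoxb13 and sequenced beside input. The submitters' processing notes name the build mm10 and, as tools, deepTools 1.6, ChIPseeker, Bowtie2 2.2.3 and Picard. Which peak caller and threshold were used, and how the libraries were pooled, is not given in the sources used here. Deposited by the authors was 1 peak list per factor (30534 Meis1 peaks, 22284 Hoxb13 peaks). Peak strength is the deposited signal value, used only within a list. A second deposited score was not used. Depth per library is unknown.

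Lines were taken by gene symbol, and gene IDs gave the same 23 and 20 lines. Shares are set beside 21887 RefSeq protein-coding genes (GRCm38.p6), mitochondrial ones left out. A locus ends midway to each neighbouring gene. Shared sites overlap by at least 1 bp. Counts used Python 3.11.15 and pandas 2.3.3, and the overlap and word searches were tested on simulated data. No test was run, since the lists hold no replicates.

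All 39 members are named. Full values are given for promoter peaks, shared sites and the members with most or strongest peaks. Of other pathway genes, those with promoter peaks of both factors are named, and Gins2 was added after its values were seen. The members and lists were chosen with earlier results of these data known. Positions and sequences on chromosome 18 (Cdc25c, Kif20a) are not printed.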

Additional observations from a re-analysis of the deposited data

How the results depend on the processing

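Of 30 recomputed counts and shares, 25 stayed within 1.5 times the value reported. With the stronger 50% of each list, members with a Meis1 peak fell from 14 to 9 and members with peaks of both factors from 7 to 4 (Cdc6, Ccnb2, Cdc25b and Ect2). These are 23.1% and 10.3% of the members, beside 28.0% and 13.1% of all genes under the same setting. Members with a Hoxb13 peak then numbered 12 (30.8%, beside 29.7% of all genes), so Hoxb13 stood slightly above all genes. With peaks within 10 kb of the start, 9 members had a Meis1 peak (23.1%, beside 19.5% of all genes), so the members then stood above all genes, as they did for Hoxb13 (15 members, 38.5%, beside 35.8%) and for both factors (5 members, 12.8%, beside 10.3%). With gene bodies and 5 kb on each side, 20 members had a Hoxb13 peak (51.3%, beside 48.4%) and 10 had both (25.6%, beside 21.9%). Over genes named by either list, 65.1% had a Meis1 peak (63.6% of the 22 members so named) and 75.6% a Hoxb13 peak (68.2%), which follows from leaving out genes with no peak. Members with a promoter peak numbered 2 to 4 (Meis1) and 10 to 14 (Hoxb13), and the shares of all genes moved too. With the stronger 50% of each list, Meis1 had 2 (5.13%, beside 6.13% of all genes) and Hoxb13 10 (25.6%, beside 23.1%). Within 3 kb of the start, Meis1 had 4 (10.3%, beside 11.6%) and Hoxb13 14 (35.9%, beside 32.4%). The shared site at Ect2 was kept with summits within 100 bp and with a reciprocal overlap of 50%. No paired analysis was possible because each list pools 3 libraries, and for the same reason no replicate could be left out. Small counts limit every share: 1 gene is 2.56% of 39.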

Other observations

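Over all protein-coding genes with a promoter window, the words differed between genes with and without a promoter peak. The Meis word was found at 36.9% of 1476 genes with a Meis1 promoter peak and at 19.8% of 16016 without one. The Hoxb13 words were found at 3.01% of 5448 genes with a Hoxb13 promoter peak and at 5.46% of 12044 without one. The E2F words were found at 5.05% and 2.49% of the same Hoxb13 groups, the cell cycle homology words at 15.2% and 22.5%, and CCAAT at 43.9% and 41.6%. The reasons for these differences were not tested.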
